A study of Mus musculus with 3 samples.

Results

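The endogenous Utf1 peak list of KH2 mouse embryonic stem cells held 232 peaks with over 100 sequencing tags outside X and Y sequence, of 10506 peaks in all. They were chosen by their listed tags, leaving out X, Y, X_random and Y_random, where a further 11 peaks had over 100 tags. The 232 peaks made up 8.997% of the length covered by the list and carried 102733 of its 276084 tags, which is 37.2%. Tags were the basis of the choice, so their number, and the fold, score and width of the same list, are given as descriptions only. What the choice did not use is the biotin list and, apart from the sequences left out, the position of a peak.

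Utf1 is a chromatin-bound transcription factor made mainly in undifferentiated, pluripotent cells. The study made 3 libraries, 1 per sample: ChIP-seq of Utf1 carrying a biotin tag, ChIP-seq of the untagged endogenous protein, and an extract of whole cells with no antibody. All come from the KH2 line in standard serum culture with 15% serum and LIF, on irradiated mouse feeder fibroblasts. Cells were crosslinked for 5 min in 1% formaldehyde. The labels name the same Utf1 antibody for both precipitations, whereas the protocol describes streptavidin beads for the tagged protein. The labels do not say what drives the tagged protein. Each group being a lone library, differences have no replicate check and no p-value is printed.

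Genomes hold some sequences in many copies. Ribosomal DNA, which encodes ribosomal RNA, lies in long tandem arrays, satellite repeats fill the regions around centromeres, and a cell carries many mitochondrial genomes, of which nuclear chromosomes hold partial copies. A reference assembly contains few of these copies, so reads from many copies can be placed on a single one. Sequence called random in the mm9 build belongs to a chromosome without a known position, and Un_random is assigned to none. A list holds only what its caller accepted, so a place without a biotin peak may still have had tags. No value of the whole-cell extract was analysed here, so the tags these places would give without precipitation are not known.

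Random sequence held 82 of the 232 peaks, which is 35.3% (95% interval 29.2 to 41.9). Over all 9801 endogenous peaks outside X and Y sequence the share was 1.93%. Intervals of shares and tags are exact binomial and Poisson, those of differences are Newcombe intervals, and all cover counting error only, while neighbouring peaks are not independent. Coordinates are mm9 as listed. Un_random alone held 68 of these peaks, and 10 lay on 8_random, 2 on 4_random, 1 on 1_random and 1 on 9_random. The 68 peaks were 51.1% of the 133 endogenous peaks on Un_random and carried 45.0% of the tags of all 232. The other 150 peaks were spread over all 19 autosomes, from 1 on chromosome 7 to 34 on chromosome 4. Without Un_random, the share on random sequence was 8.54%.

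**Figure D1:**
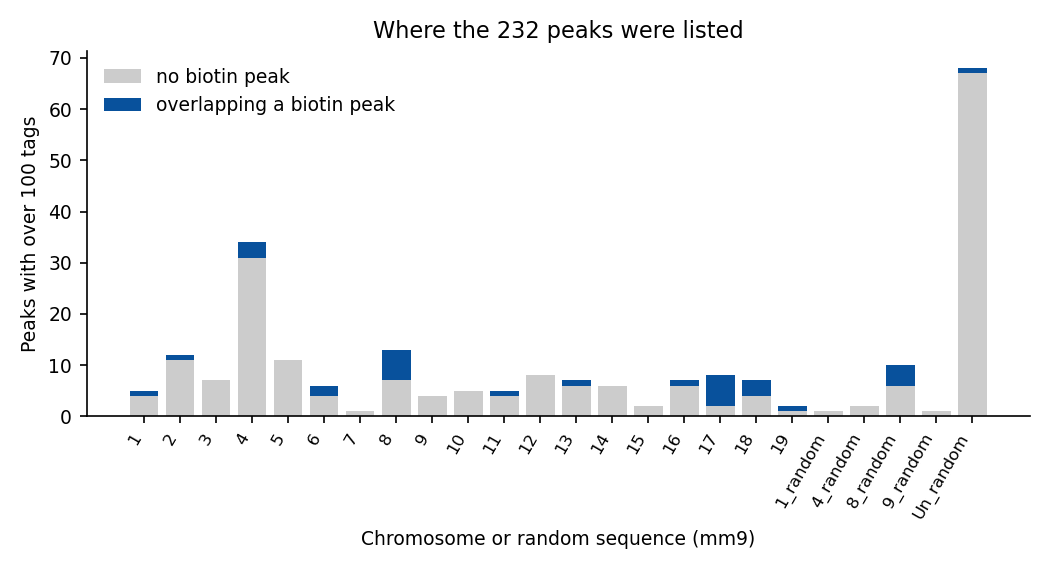
Number of endogenous peaks with over 100 tags on each autosome and random sequence of mm9 (bars), split by whether they overlap a biotin peak by at least 1 bp. Un_random has the tallest bar, with 68 peaks of which 1 overlaps, and chromosome 4 follows with 34.

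Each known collapsed repeat held 1 peak with over 100 tags, and these were the endogenous peaks with most tags. They are identified by their known positions in mm9 and not by an annotation. The ribosomal DNA copy on chromosome 17, at 39979436 to 39986231, had 4648 tags (4515 to 4784), and the mitochondrial-like copy on chromosome 1, at 24618198 to 24623575, had 5880 (5731 to 6032). Together they held 10.2% of the tags of the 232 peaks. Per length they stood at 684 and 1093 tags per kb, against a median of 145 over the 232 peaks and 23.3 over the other endogenous peaks outside X and Y sequence.

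The biotin list treated these copies differently. On the ribosomal DNA copy it listed a peak at 39979342 to 39985969 with 10420 tags, whose summit lay 127 bp from the endogenous summit. That peak ranked 1 of 152608 by tags and also had the lowest fold enrichment of the whole biotin list, 1.47. On the mitochondrial-like copy the biotin list had no peak, and the nearest lay 15.6 kb away, although 22 biotin peaks were listed within 500 kb. The fold listed in the endogenous list was under 1 at both copies, 0.82 and 0.79, while their scores, 10 times the −log10 of the p-value, stood at 3100. In all, 37 of the 232 peaks had a score of 3100 or more, as did 0.378% of all endogenous peaks outside X and Y sequence, and only these 2 combined it with a fold under 1. Of the 37, 35 stood at exactly 3100, so the score does not rank those peaks among themselves. RefSeq's table for GRCm38.p6 names an 18S ribosomal pseudogene, Rn18s-rs5, on chromosome 17 and a pseudogene with the synonym mt-Atp6, Gm10925, on chromosome 1. For chromosome 1 the names listed also included protein-coding genes such as Col9a1 and Lmbrd1. The coordinates of that table belong to another build and were not matched to the peaks, so these names do not identify them.

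**Figure D2:**
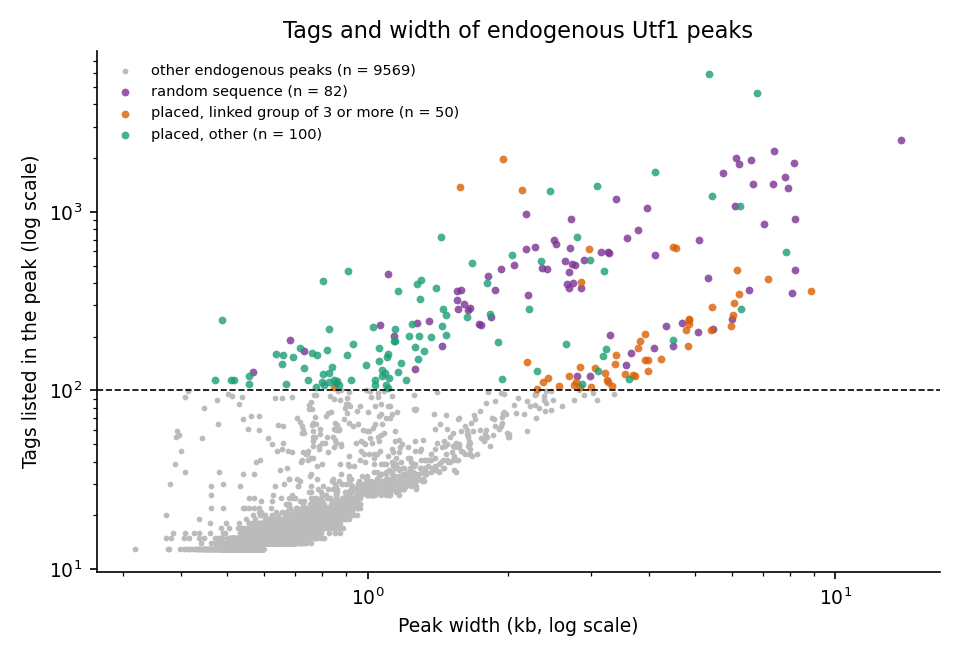
Tags listed in each endogenous peak against its width in kb, both on log scales, for the 232 peaks by location (coloured) and the other 9569 endogenous peaks outside X and Y sequence (grey). The dashed line marks 100 tags. The 2 topmost points are the mitochondrial-like and ribosomal DNA copies.

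After these copies, the highest tag counts on placed chromosomes came from a few compact places. A stretch of 6.02 kb on chromosome 2, from 98502000 to 98508016, held 3 adjoining peaks with 1381, 1333 and 1972 tags, separated by gaps of 48 and 311 bp. No repeat annotation of mm9 was used here, so what repeats lie there was not looked up. Of the 3, only the middle peak had a biotin peak, with 661 tags and a fold of 2.06. Elsewhere on chromosome 2, 22442261 to 22446376 had 1664 tags (1585 to 1746) and a fold of 1.15. On chromosome 17, 13743132 to 13746226 had 1395 tags and a fold of 1.26, and on chromosome 15, 74915509 to 74917962 had 1317 tags and a fold of 1.37. The list of the 10 highest closed with chr11:2999840-3005291, with 1222 tags, and chr10:7229218-7235465, with 1079. Chromosome 17 at 13743132 was the only one of these last 5 with a biotin peak.

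The peak on chromosome 11 began at the lowest position listed on that chromosome. Of the 150 peaks on placed chromosomes, 12 lay in the first 1 Mb of listed sequence, 8% (4.2 to 13.6), against 2.28% of all placed endogenous peaks outside X and Y sequence. They came from 8 chromosomes, with 3 on chromosome 16, 2 each on 4 and 17, and 1 each on 11, 12, 13, 14 and 18. This is the end of each mouse chromosome that adjoins the centromere. Their median width was 4136 bp, and their tags ran from 116 to 1222. Of the 12, 5 overlapped a biotin peak, 41.7% (15.2 to 72.3), an interval that includes the 18.5% of all endogenous peaks outside X and Y sequence that did. Among the 5 were both peaks on chromosome 17, with 128 and 191 tags, whereas chr12:3109699-3110607, with 464 tags and a fold of 2.57, had none.

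On Un_random the peaks were wide, in part closely spaced, and had a median fold near that of the list at large. Over all endogenous peaks outside X and Y sequence the median fold was 1.57 (interquartile range 1.37 to 1.76). The 68 peaks had a median of 495 tags (interquartile range 289 to 807), a median width of 2720 bp and a median fold of 1.62 (1.44 to 1.86), with 0 of them under 1. The one with most tags, 2523 (2426 to 2623), covered 5165150 to 5178985, which at 13836 bp was also the widest peak of the endogenous list. It was followed by 5887472 to 5894876 with 2191 tags, 5246804 to 5252942 with 1998, 4527487 to 4534075 with 1958 and 3909319 to 3917490 with 1873. Over the whole set, and not on Un_random alone, merging peaks up to 1 kb apart turned the 232 into 203 regions. Of these, 18 held more than 1 peak, 47 peaks in all, and 185 held a single peak. The region with most peaks, on Un_random from 3556347 to 3575141, joined 5 peaks with 2616 tags and was 86.5% covered by them. Further regions at 4520213 to 4534075 and 4758187 to 4771914 joined 4 peaks each, with 3408 and 3307 tags. Of 4 regions with 3 peaks each, those with most tags were the chromosome 2 stretch and Un_random at 3909319 to 3924511, covered to 98.1%.

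The biotin list had peaks on Un_random, but almost none of them met the 68 endogenous peaks. It held 85 peaks on Un_random, with up to 2496 tags. They covered 200.79 kb, against 294.839 kb for the 133 endogenous peaks there. Of the 85, 22 fell within the 2.50 Mb that the 68 endogenous peaks span, while 119 endogenous peaks fell there. Only the peak at 5089246 to 5092820, with 139 endogenous and 178 biotin tags, overlapped a biotin peak, 1.47% of the 68 (0.0372 to 7.92), against 18.5% of all endogenous peaks outside X and Y sequence. On random sequence outside X and Y, 17 of all 189 endogenous peaks overlapped one, or 8.99%. The median distance from an endogenous peak of this set to the nearest biotin peak was 70.8 kb on Un_random, against 8894 bp for the 150 peaks on placed chromosomes. Random sequence was not empty of biotin peaks in general, since 278 were listed on it outside X and Y sequence.

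Peaks on 8_random differed from those on Un_random in both lists. The 10 peaks had 121 to 472 tags and a median fold of 0.85, and 8 of them had a fold under 1. Their median width was 5209 bp, so their density was 47.1 tags per kb, against 188 on Un_random. Of the 10, 4 overlapped a biotin peak, 40.0% (12.2 to 73.8), an interval that includes the 18.5% of all peaks. The pair with most tags lay at 818684 to 824029, with 425 endogenous tags and a fold of 0.65, on a biotin peak with 1352 tags and a fold of 4.21.

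Among the peaks on placed chromosomes, 50 lay in 7 groups of at least 3, linked where neighbours were at most 500 kb apart, a grouping made after their positions had been seen. Over the 50 peaks the median width was 3620 bp. Median density was 45.0 tags per kb, against 145 over the 232 peaks and 23.3 over the other endogenous peaks outside X and Y sequence. Groups differed in density, from 31.8 to 47.9 tags per kb in the largest, on chromosome 4, to 624 to 1013 on the chromosome 2 stretch. The median fold of the 50 was 0.93, and 31 of the 50 had a fold under 1. Over all endogenous peaks outside X and Y sequence, 3.33% had a fold under 1. By far the largest group held 24 peaks on chromosome 4, between 145021592 and 147017762. Tags ran from 102 to 361 there, widths from 2305 to 8858 bp and folds from 0.68 to 1.19, and 18 of the 24 folds were under 1. Another 99 endogenous peaks with up to 100 tags lay in the same 1996 kb. The biotin list had 45 peaks there, which covered 3.85% of the span. Of the 24 endogenous peaks, 1, at 145694843 to 145698818, overlapped one, as did 8 of the other 99. Over all endogenous peaks outside X and Y sequence, 18.5% overlapped a biotin peak.

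The groups of 7 on chromosomes 5 and 8 had folds in a like range and differed in the biotin list. On chromosome 5, between 14916608 and 15168372, 7 peaks had 190 to 423 tags and folds of 0.73 to 1.08, and no biotin peak was listed across the 252 kb. On chromosome 8, between 19714329 and 19969866, 7 peaks had 118 to 474 tags and folds of 0.66 to 1.09. There the biotin list had 11 peaks across 256 kb, with 127 to 3623 tags, and 4 of the 7 endogenous peaks overlapped one. The biotin peak with 3623 tags was not among those overlapped. Another group on chromosome 8, between 71997492 and 72069059, held 3 peaks with folds of 0.63, 0.78 and 1.01, of which 2 overlapped a biotin peak. The 3 remaining groups were the chromosome 2 stretch, a group near the end of chromosome 2 from 181651477 to 181667605 with 104 to 623 tags, folds of 1.08 to 1.41 and no biotin peak, and a group on chromosome 16 from 3112985 to 3353471 with 172 to 633 tags, folds of 1.03 to 1.39 and 1 of 3 peaks on a biotin peak.

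**Figure D3:**
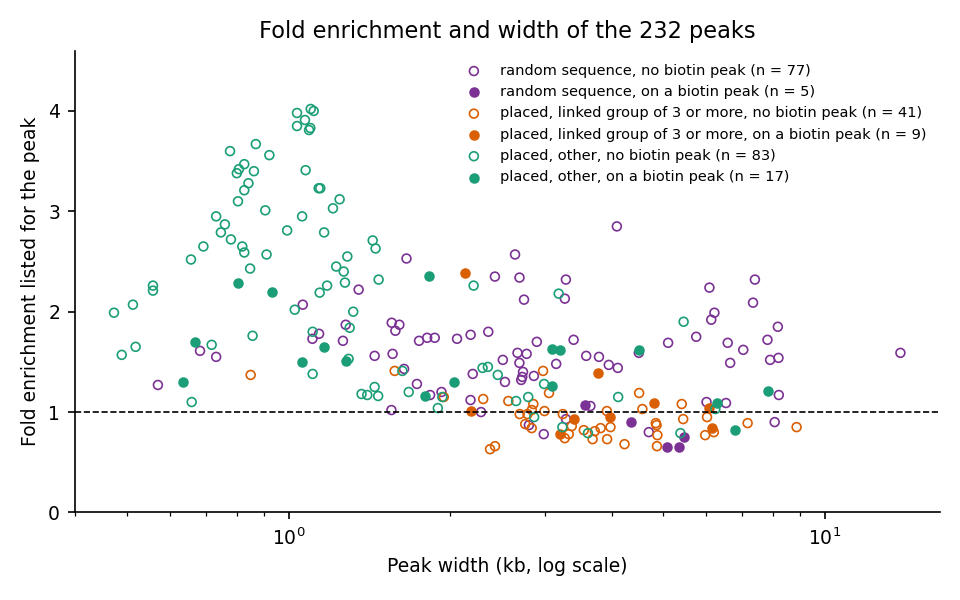
Fold enrichment listed in the endogenous list against peak width in kb (log scale) for the 232 peaks, coloured by location and filled where the peak overlaps a biotin peak; the dashed line marks a fold of 1. Folds of 3 or more are seen only at widths up to 1244 bp, and the linked groups on placed chromosomes lie mostly at 2 kb or more near or under 1.

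The other 100 peaks on placed chromosomes were mostly narrow, and a part of them had the highest folds of the set. Their median width was 1144 bp and their median fold 2.20 (interquartile range 1.38 to 2.89). All 23 peaks with a fold of 3 or more belonged here, whereas 1.5% of all endogenous peaks outside X and Y sequence reached that fold. Their tags ran from 104 to 235 and their widths from 777 to 1244 bp. The highest fold was that of chr17:68090210-68091308, at 4.02, from 153 tags (130 to 179). Next was chr2:91933250-91934362 at 4.00, from 118 tags. The peak chr14:91310507-91311542 had a fold of 3.98 and chr3:21596907-21597978 a fold of 3.91. Then came chr5:110503085-110504120 with a fold of 3.85, chr4:31280866-31281962 with 3.83 and chr1:69502863-69503953 with 3.81. The 10 highest closed with chr3:127912700-127913567, chr16:30829378-30830154 and chr13:53364926-53365845, with folds of 3.67, 3.60 and 3.56.

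None of the 23 overlapped a biotin peak, which allows a share of up to 14.8%, against 18.5% of all endogenous peaks outside X and Y sequence. Their nearest biotin peak was 1.09 to 95.3 kb away, with a median of 7266 bp. Among 124 endogenous peaks of such fold but up to 100 tags, 15 met a biotin peak, 12.1%, which lies within what the 0 of 23 allows, so no difference between these peaks and the 23 was detectable. Within the 100 peaks outside linked groups, 3 of the 55 whose fold reached 2 met a biotin peak, 5.45% (1.14 to 15.1), and 14 of 45 with a lower fold, 31.1% (18.2 to 46.6). The 45 peaks of lower fold were wider, with a median of 1897 bp against 1026 bp. Across the 232 peaks, Spearman's rho between width and fold was −0.60. It was −0.76 over the 150 placed peaks and −0.14 over the 82 on random sequence. All these peaks share 1 library and 1 caller.

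Over the whole set, 31 of 232 peaks overlapped a biotin peak by at least 1 bp, 13.4% (9.26 to 18.4). The share over all endogenous peaks outside X and Y sequence was 18.5%, just above that interval, and among the 895 peaks with 21 to 100 tags it was 23.5% (20.7 to 26.4). The difference from those 895 peaks was −10.1 percentage points (−14.9 to −4.46). Leaving Un_random out of both groups gave 18.3% against 23.9%, a difference of −5.56 points (−11.5 to 1.59). Placed chromosomes alone gave 17.3% against 24.04%, a difference of −6.71 points (−12.7 to 0.67). Both intervals include 0. The peaks behind these values are part of those behind −10.1, so the intervals do not test the change. On Un_random 1.47% of the 68 peaks overlapped. Without it, the 18.3% of the set was near the 18.5% of all endogenous peaks outside X and Y sequence. Counting a peak only where its summit lay inside a biotin peak gave 24 of 232, or 10.3%, against 12.3% of all endogenous peaks outside X and Y sequence, and a difference of −4.52 points (−8.64 to 0.56) from the peaks with 21 to 100 tags. Requiring overlap of 50% of the shorter peak gave −4.87 points (−9.08 to 0.29), an interval that also includes 0. By tags, the share was 13.7% up to 200 tags, 16% above that up to 500 and 9.09% over 500 tags. The share was already 14.9% (10.4 to 20.5) at 51 to 100 tags, after 26.1% (22.8 to 29.5) at 21 to 50.

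**Figure D4:**
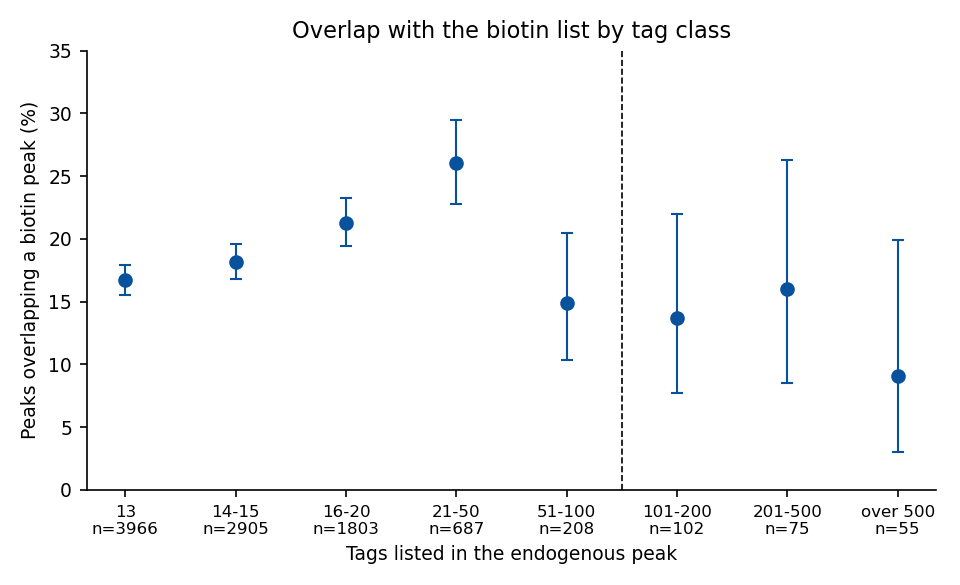
Share of endogenous peaks outside X and Y sequence that overlap a biotin peak, in percent, by tags listed in the endogenous peak; bars are exact 95% binomial intervals and n is the number of peaks. The 3 classes right of the dashed line are the 232 peaks, at 9.09 to 16%.

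Where a biotin peak was listed, it was a tag-rich peak of low fold. The 31 peaks met 32 biotin peaks, since 1 met 2, whose tags were added up and whose higher fold was used. They had a median of 365 tags (interquartile range 309 to 846), against 53 over the biotin list. Each of the 31 met a biotin peak at or above the 86.9 percentile of its list by tags. Their fold had a median of 3.12 (2.70 to 3.67), and 26 of 31 were under the biotin median of 4.14, as were 33.0% of the 1784 other pairs. The biotin peaks met by the other 1784 overlapping endogenous peaks had a median of 81 tags and a median fold of 5.52. Among these, the 31 with 51 to 100 endogenous tags met biotin peaks with a median of 219 tags. The median fold of those was 3.46 (2.85 to 4.12), so low fold was not particular to the 232 peaks. Of the 232 peaks, 5 overlapped a biotin peak with at least the median fold of its list, 2.16%. The same held for 1196 of the other 9569 endogenous peaks outside X and Y sequence, and for 13.7% of those with 21 to 100 tags.

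The biotin peak had more tags in 28 of 31 pairs and the higher fold in 28 of 31, 90.3% each. Among the 1784 other overlapping pairs each of these held in 99.7%, so the direction is that of the lists at large. After the ribosomal DNA copy, the most biotin tags were listed on chr17:13742971-13746681, with 3271, against 1395 in the endogenous peak. The peak chr4:118219068-118221815 had 1887 biotin tags against 572, and chr13:74665304-74668735 had 1317 against 466. The peak chr6:29697247-29699668 had 1071 against 401, and chr18:3112446-3121100 had 1033 against 285. On chromosome 8, 19756473 to 19760817 had 888 against 474, and on chromosome 4, 3007013 to 3013935 had 804 against 596. The endogenous list had more tags on chr2:98503624-98505759, with 1333 against 661, on chr6:103598650-103599453, with 410 against 369, and on 8_random at 392531 to 396881, with 229 against 224. The first 2 of these also had a lower fold in the biotin list, as did chr18:40466649-40468471.

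Per length, all 31 biotin peaks were denser than their endogenous partner, as were 99.7% of the biotin peaks in the other pairs. The median factor was 2.43 (interquartile range 1.60 to 2.67, range 1.07 to 4.32). Over the other 1784 overlapping peaks the median factor was 2.61 (1.89 to 4.26). The libraries were not scaled to each other and their depths are unknown, so a factor compares the lists and not the precipitations. Both lists also start at the lowest density accepted in their calling.

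**Figure D5:**
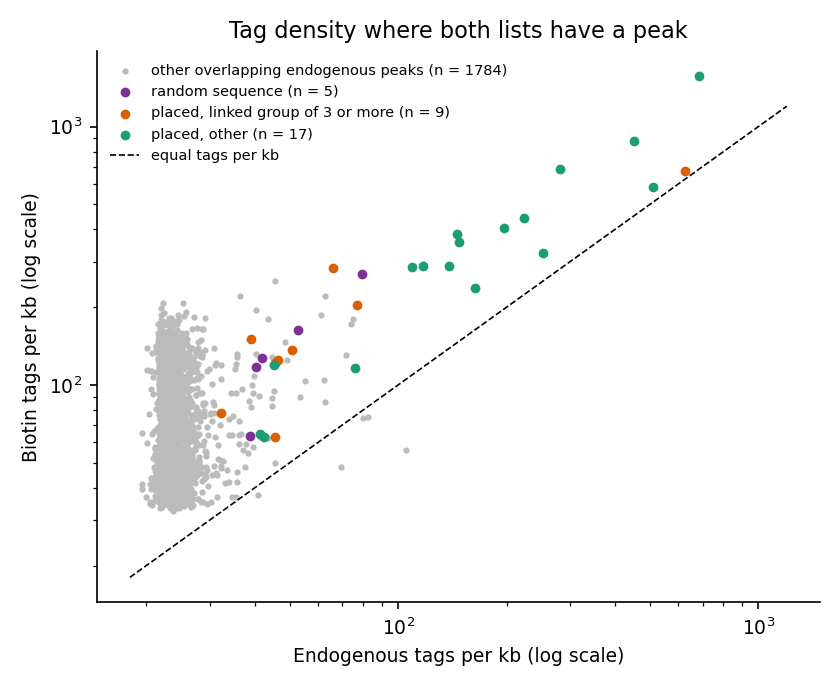
Tags per kb of the biotin peak against tags per kb of the endogenous peak it overlaps, on log scales, for the 31 peaks with over 100 tags (coloured by location) and the other 1784 overlapping endogenous peaks outside X and Y sequence (grey). The dashed line marks equal density, and all 31 points lie above it.

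Summits coincided most at the narrow peaks. In 16 of 31 pairs the summits lay within 250 bp of each other, 51.6% (33.1 to 69.8), against 25.6% of all 1815 overlapping endogenous peaks outside X and Y sequence. All 9 pairs with an endogenous peak under 2 kb were among them, as were 7 of 22 at wider peaks. The closest was on chr18:40466649-40468471, with 1 bp between summits, followed by chr6:103598650-103599453 with 3 bp, and chr11:88942855-88943522 with 8 bp. Summits were farthest apart on 8_random, 3782 bp at 387351 to 392422. Wide peaks leave more room between summits, so this order follows width in part by construction.

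Peaks on both sides of the limit of 100 tags had folds from near 1 to over 3. Just inside the limit were chr4:145417735-145420039 with 102 tags and a fold of 1.13, chr16:86820753-86821860 with 103 tags and 1.38, and chr16:30829378-30830154 with 104 tags and 3.60. Just outside, with 100 tags each, were chr5:80929501-80930492 with a fold of 4.48, chr8:75843107-75843985 with 2.59, and chr4:145852583-145855413 with 0.79. Of these 6 peaks 0 overlapped a biotin peak. In the endogenous list, 67 of the 232 peaks had a listed false discovery rate of 0, which was 0.684% of all peaks outside X and Y sequence, and none of the others there had that value.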

How the data were processed

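Peak lists of 2 libraries were used, endogenous and biotin-tagged Utf1, with 1 list per library. Per the submitters' processing notes, BWA 0.5.7, R 2.15.2 and build mm9 were used, with no roles given. Which caller, settings and control made the lists: not given in the sources used here. Per the file headers, the authors listed for each peak a tag count (whole numbers, not scaled for depth), a score of 10 times the −log10 p-value, a fold enrichment (a linear ratio) and a false discovery rate in percent. Library depth is unknown.

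Members were endogenous peaks with over 100 tags outside X and Y sequence. Members, groups and comparisons were chosen with earlier results of these data known. Overlap meant at least 1 bp. Shares have exact Clopper-Pearson, counts exact Poisson and differences Newcombe intervals at 95%. Medians in the alternatives were judged against order-statistic intervals. Named regions were the 10 placed and 5 random members with most tags, the 10 with the largest fold, the 10 with most biotin tags, both landmark copies (searched 50 kb to either side), the 5 merged regions with most members and 3 peaks to each side of the tag limit. Others were named after their values were seen. The calculation recovered planted overlaps in simulated lists, and bedtools 2.31.1 gave the same 31 overlapping members. Calculations ran in Python 3.11.15 (scipy 1.17.1, numpy 2.4.6, pandas 2.3.3), with plots by matplotlib 3.10.9. No mm9 genome, gene or repeat annotation was used here, so no sequences are shown.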

Additional observations from a re-analysis of the deposited data

How the results depend on the processing

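Of 71 alternatives over 12 results, 41 kept the value within its interval or 1.5 times the count, 30 moved it and 0 reversed a sign. For the 232 peaks as chosen, the median fold was 1.535, and 45 peaks, or 19.4%, had a fold under 1. Over all endogenous peaks outside X and Y sequence the median fold was 1.57, and 3.33% were under 1. With a limit of 50 tags there were 440 peaks in 391 merged regions, holding 42.6% of tags, 20.7% of them on random sequence, with a median fold of 1.68. With a limit of 200 there were 130 peaks in 107 regions, holding 32.1% of tags, 54.6% on random sequence and 13.6% of those placed in the first 1 Mb. Taking the same number of peaks by tags per kb gave 34.3% of tags, 7.76% overlapping a biotin peak and a median fold of 2.085. It also gave 1.29% with a fold under 1 and 3.68% in the first 1 Mb. The difference there was −17.2 points, taken from all unchosen peaks with at least 21 tags, including those over 100 tags. Placed peaks alone held 18.8% of tags. Merging peaks within 1 kb put 29.1% of regions on random sequence. Requiring a biotin fold of at least the median left 2.16% of the set and 13.7% of the peaks with 21 to 100 tags overlapping. For those peaks, overlap of 50% of the shorter peak gave 15.6%, a summit inside 14.9% and a distance within 1 kb 33.2%, the last with a difference of −15.9 points. Chosen after seeing the data, leaving out the landmark peaks gave 33.4% of tags, and leaving out the linked group on chromosome 4 gave 12.98% with a fold under 1. Leaving out Un_random gave 20.5% of tags, 8.54% on random sequence, a median fold of 1.375 and 27.4% under 1. The causes were not tested. No paired analysis was possible because each group is 1 library, and no replicate could be left out.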

Other observations

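In the endogenous list, 8 of the peaks with over 100 tags outside X and Y sequence had exactly 114 tags, on 7 chromosomes. Their folds ran from 1.65 to 3.98, and 0 of the 8 overlapped a biotin peak. So few peaks cannot be told apart from the 18.5% of all endogenous peaks outside X and Y sequence that did. Between 102 and 140 tags, the next most frequent count occurred in 4 peaks. Just under the limit, 7 peaks had 99 tags. This was noticed while reading the values and was not tested.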
